A study of Homo sapiens with 12 samples.

Results

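RPE1 is a human retinal pigment epithelial line that was made permanent with telomerase and divides continuously in culture. Of the 12 bulk RNA-seq libraries of the series, 8 are described here, chosen by their treatment labels. The comparison, the gene lists and the gene families were chosen with earlier results of these data known. The control group was 4 libraries of wild-type RPE1 cells given DMSO, the solvent, and the treated group was 4 libraries of wild-type RPE1 cells given 50 nM doxorubicin together with 5 µM ferrostatin-1. Both compounds were present from plating, ferrostatin-1 was added again at 48 hours, and the treatment lasted 72 hours. The 4 libraries given doxorubicin without ferrostatin-1 were not used, and no group received ferrostatin-1 alone, so what each compound contributed cannot be told apart in these 8 libraries. All libraries come from 1 line, and the labels do not say whether the 4 replicates of a group are separate cultures, so the p-values measure only the spread between these libraries, which may be technical.

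Doxorubicin is a DNA intercalator that traps topoisomerase II on cleaved DNA and leaves double-strand breaks. Cells with such breaks raise CDKN1A, an inhibitor of cyclin-dependent kinases, and the pocket proteins then hold genes of DNA synthesis and of mitosis silent through E2F sites and through the CHR element, a short promoter sequence that often lies beside CCAAT boxes. Cells arrested in this way for days enlarge, gain lysosomes, lose lamin B1 from the nuclear envelope and secrete matrix proteins, proteases and growth factor-binding proteins. Ferroptosis is a form of death in which phospholipids of the membrane are oxidised in an iron-dependent chain reaction, which GPX4, glutathione and radical-trapping antioxidants stop. Ferrostatin-1 is a synthetic radical-trapping antioxidant that blocks this reaction without a transcription factor as its known direct target.

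The deposited table held 22498 identifiers, which became 21599 genes when identifiers with the same symbol were summed, and 13165 of them had enough counts to be tested. Library totals ran from 17523920 to 19650696 counts in the control group and from 20243458 to 24879198 in the treated group, so that 3 counts in a library, the limit that a count of 0 allows, corresponded to 0.126 to 0.162 counts per 1000000 (CPM). Levels below are CPM scaled by trimmed mean of M values (TMM) factors, given as mean ± SD over n = 4 libraries a group, and fold changes are treated over control on the log2 scale with a standard error (SE). Where a gene's level is given as a pair of values, the control comes first. Libraries of a group resembled each other far more than those of the other group. Over all tested genes the correlation of log2 levels was 0.988 to 0.991 in the 12 pairs within a group and 0.930 to 0.936 in the 16 pairs between groups, and the first principal component, which separated the groups, held 79.2% of the variance. No 2 libraries agreed within counting noise, since chi-square per degree of freedom was 2.33 to 12.9 within groups. Control replicate 1 stood apart from the other controls, at 6.95 to 12.9 in its pairs with them against 2.33 to 3.77 among them. Pairs of treated libraries were at 5.28 to 8.08. The median coefficient of variation between replicates was 6.81% in the control group and 6.86% in the treated group over the 11639 genes with a mean log2 CPM of at least 1.

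Treatment with both compounds moved most of the measured transcriptome. At an adjusted p below 0.05 (edgeR's quasi-likelihood test with Benjamini-Hochberg adjustment), 8796 of the 13165 tested genes were called, which is 66.8%, with 4448 higher (33.8%) and 4348 lower (33.0%). Most of these differences were small, as 4809 of the calls (54.7%) were below 1.5-fold. Counts for lists and families below are to be read beside the shares of 33.8% higher and 33.0% lower. Losses reached further than gains: 1159 genes were at least 2-fold lower (8.80% of those tested) against 684 at least 2-fold higher (5.20%), 190 were at least 8-fold lower against 29 at least 8-fold higher, and 77 were at least 16-fold lower against 9. The groups did not overlap in 7948 genes (60.4%): every library of 1 group was above each library of the other. The median log2 fold change over all tested genes was -0.008. TMM scaling places the centre of the changes near 0, so this median and the even split of calls depend on it. RNA per cell was not measured. The median was -0.17 when levels were scaled by library totals alone, where 3132 genes were called higher and 5910 lower. Higher genes made up 34.6% of the calls there in place of 50.6%. All 4348 genes called lower and 3132 of the 4448 called higher kept call and direction under that scaling, and none was called in the opposite direction. Calls grew with level, from 20.4% of genes below 1 CPM to 92.8% of the 125 genes in the highest band, above 1000 CPM by the higher group mean, of which 100 were higher and 16 lower.

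**Figure D1:**
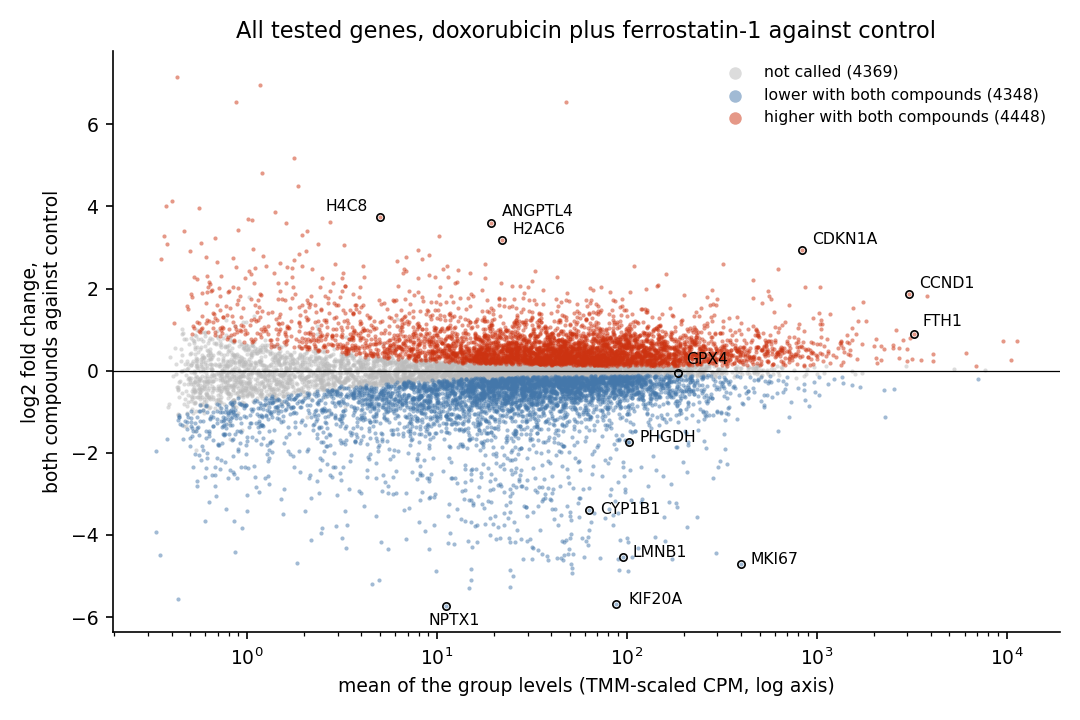
Log2 fold change (treated over control, vertical axis) against the mean of the 2 group levels (horizontal axis, TMM-scaled CPM on a log axis) for all 13165 tested genes, with genes called higher and lower in colour. The cloud is centred near 0, where TMM scaling places it. Its lower arm reaches further from 0 than its upper arm, with 77 genes at least 16-fold lower and 9 at least 16-fold higher.

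The largest losses among well-measured genes were of cell division genes, with a pair of exceptions. NPTX1, a secreted neuronal pentraxin (GRCh38 chr17:80467148-80477843), stood at 20.1, 22.9, 21.5 and 22.8 CPM in the control libraries and 0.421, 0.47, 0.366 and 0.363 CPM in the treated ones. No treated library came near a control library, and the fold change was the largest fall of all (log2 fold change -5.73, SE 0.14, adjusted p = 1.68e-15). NEURL1B, a ubiquitin ligase of the Notch pathway, fell from 28.8 ± 1.34 to 0.732 ± 0.104 CPM (log2 fold change -5.29, SE 0.12, adjusted p = 5.76e-16). The other 10 of the 12 largest falls were KIF20A, TROAP, CENPA, NEK2, NUSAP1, E2F2, CDC20, PLK1, PIMREG and KIF15, which act in mitosis or, for E2F2, in the entry to S phase. Their log2 fold changes lay between -5.68 and -4.82.

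The 12 largest rises among well-measured genes with a symbol were of mixed function. H4C8, H2BC21, H2AC6 and H2AC19 encode core histones and are described further on with the other histones. ANGPTL4, a secreted inhibitor of lipoprotein lipase, was at 1.76, 3.72, 2.79 and 3.43 CPM in the control libraries and 37.5, 36.9, 32.2 and 35.9 CPM in the treated ones (log2 fold change 3.61, SE 0.13, adjusted p = 5.2e-13), and its groups lay far apart. CDKN1A rose from 193 ± 9.59 to 1481 ± 34.1 CPM. CLSTN2, a calsyntenin of the cell surface, rose from 90.7 ± 9.79 to 553 ± 64.3 CPM (log2 fold change 2.61, SE 0.086, adjusted p = 1.05e-13), which made it the rise among these 12 with the second-highest level after CDKN1A. TUBB4A, a beta-tubulin otherwise known from neurons and glia, rose from 0.693 ± 0.0797 to 5.81 ± 0.38 CPM. LRP1B, a large receptor of the LDL receptor family, rose from 1.75 ± 0.286 to 11.9 ± 2.08 CPM. GASK1B, a Golgi kinase-like protein, rose from 1.85 ± 0.406 to 14.1 ± 1.3 CPM. TMEM59L rose from 2.2 ± 0.272 to 14.5 ± 0.605 CPM. PTCHD4, a patched-domain protein, rose from 1.68 ± 0.247 to 10.7 ± 0.972 CPM.

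Genes of G2 and mitosis fell without exception, and they fell the most. All 48 tested members of a list of mitotic kinases, cyclins, spindle, kinetochore and cytokinesis genes were called lower, with a median log2 fold change of -4.16 against -0.008 over all tested genes, and 47 of them were at least 4-fold and 33 at least 16-fold lower. In bulk RNA, fewer cells expressing a gene and less of its RNA in each cell cannot be told apart. Promoters of 4 of these genes are shown first, because many mitotic genes are known to share a promoter motif, and 3 of the 4 hold it. Stretches are the 250 bases before the annotated start from RefSeq (GRCh38.p14), 5′ to 3′ on the gene's strand, in lower case with CHR elements (TTTGAA) and CCAAT boxes in capitals, on either strand (TTCAAA and ATTGG on the other).
PRC1, chr15:90994536-90994785, minus strand: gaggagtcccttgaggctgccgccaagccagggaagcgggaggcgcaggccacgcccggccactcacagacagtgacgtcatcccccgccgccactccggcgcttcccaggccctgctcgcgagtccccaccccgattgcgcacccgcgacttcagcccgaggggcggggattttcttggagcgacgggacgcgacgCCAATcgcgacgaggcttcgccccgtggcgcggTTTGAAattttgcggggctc
CDC20, chr1:43358731-43358980, plus strand: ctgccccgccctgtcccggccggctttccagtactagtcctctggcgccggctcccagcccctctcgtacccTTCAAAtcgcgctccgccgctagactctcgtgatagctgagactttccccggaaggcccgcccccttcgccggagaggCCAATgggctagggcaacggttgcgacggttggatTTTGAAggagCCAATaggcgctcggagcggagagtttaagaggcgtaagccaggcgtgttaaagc
TOP2A, chr17:40417897-40418146, minus strand: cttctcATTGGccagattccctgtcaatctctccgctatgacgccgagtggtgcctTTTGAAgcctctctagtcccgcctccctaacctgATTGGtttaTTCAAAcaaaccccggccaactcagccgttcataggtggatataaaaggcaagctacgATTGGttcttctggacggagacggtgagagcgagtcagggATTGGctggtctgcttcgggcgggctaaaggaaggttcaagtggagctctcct
KIF20A, chr5:138178862-138179111, plus strand: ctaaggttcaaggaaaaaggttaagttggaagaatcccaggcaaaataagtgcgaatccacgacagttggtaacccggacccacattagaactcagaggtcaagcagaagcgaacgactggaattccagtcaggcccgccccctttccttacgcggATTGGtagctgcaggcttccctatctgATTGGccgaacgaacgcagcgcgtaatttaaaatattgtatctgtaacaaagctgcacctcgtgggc
PRC1 holds 1 CHR and 1 CCAAT box in the window, CDC20 holds 2 of each, TOP2A holds 2 CHR elements and 4 CCAAT boxes, and KIF20A holds 2 CCAAT boxes and no exact CHR match.

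Over the list, RefSeq promoters matched 41 of the 48 genes, in 48 windows. The CHR letters occurred in 26 of these windows (54.2%), against 9.26% of the 15166 windows of all tested genes and 13.3% of all 35116 promoters. A CCAAT box occurred in 37 windows (77.1%), against 32.9% and 32.0%. Both together occurred in 22 windows (45.8%), against 3.43% of windows of tested genes and 4.69% of all promoters. A match describes the letters and is not a measured binding site, and none of the windows was tested for binding here.

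The mitotic genes given below lay above the counting floor in both groups and were far lower in treated cells, except for BUB3, whose loss was small. KIF20A, the kinesin of the central spindle (chr5:138178719-138187715), was at 174, 170.0, 170.3 and 169 CPM in the control libraries and 3.16, 3.97, 3.61 and 2.68 CPM in the treated ones (log2 fold change -5.68, SE 0.083, adjusted p = 1.35e-17). CDC20, the activator of the anaphase-promoting complex, was at 187, 198, 202 and 202 CPM in the control libraries and 7.21, 7.62, 6.34 and 5.86 CPM in the treated ones (log2 fold change -4.87, SE 0.075, adjusted p = 2.27e-17). Every treated library was far below every control library for both genes. TOP2A, the topoisomerase II isoform of dividing cells and a target of doxorubicin, fell from 566 ± 37.3 to 26.2 ± 0.972 CPM (log2 fold change -4.43, SE 0.062, adjusted p = 1.33e-17). PRC1, which bundles the antiparallel microtubules of the central spindle, fell from 301 ± 9.7 to 16.9 ± 0.841 CPM (log2 fold change -4.15, SE 0.058, adjusted p = 1.33e-17). MKI67, which coats mitotic chromosomes and marks proliferating cells, was at 940.4, 757, 670.1 and 687 CPM in the control libraries and 28.0, 33.6, 32.0 and 23.8 CPM in the treated ones (log2 fold change -4.70, SE 0.12, adjusted p = 3.16e-15). Control replicate 1 was the highest of the controls, and the groups did not overlap. PLK1 fell from 175 ± 6.26 to 6.1 ± 1.19 CPM. CDK1, the main mitotic kinase, fell from 118 ± 2.4 to 7.96 ± 0.175 CPM, and its partner CCNB1 from 141 ± 6.37 to 11.6 ± 0.751 CPM. FOXM1 and MYBL2, transcription factors that activate mitotic genes, fell from 264 ± 7.61 to 16 ± 1.1 and from 95.8 ± 1.17 to 6.08 ± 1.09 CPM. The smallest loss of the list was that of BUB3, a checkpoint protein that also has roles outside mitosis, at 328 ± 8.75 and 206 ± 11.3 CPM (log2 fold change -0.68, SE 0.05, adjusted p = 3.96e-09).

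**Figure D2:**
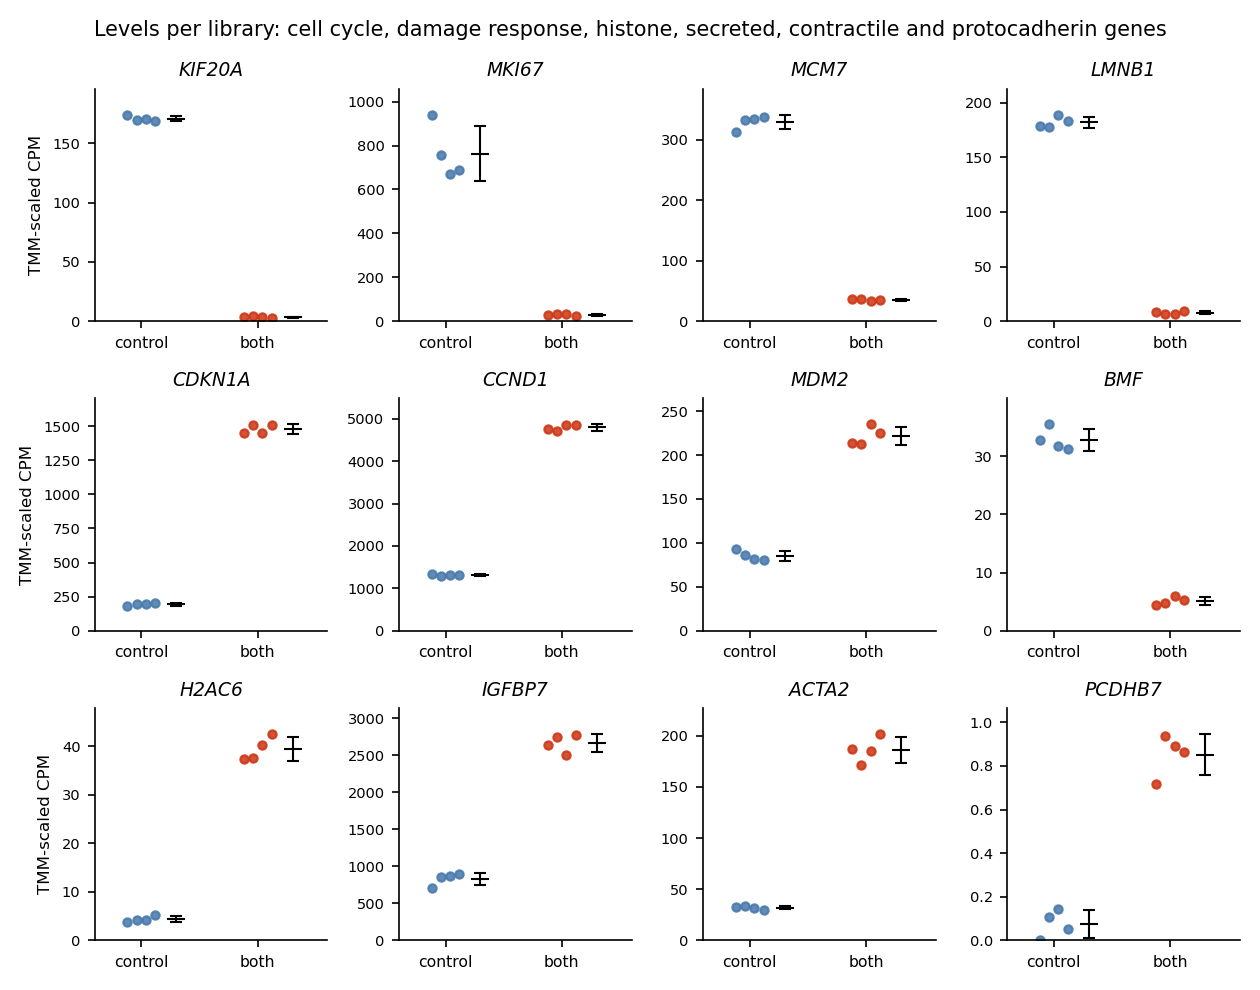
Level in each library (vertical axes, TMM-scaled CPM from 0, one panel a gene) for cell-cycle, lamina, damage-response, histone, secreted, contractile and protocadherin genes, with points for the 4 control and the 4 treated libraries and bars for mean ± SD. Mitotic genes such as KIF20A lie near 0 in every treated library, while CDKN1A lies between 1449 and 1512 CPM there and between 179 and 199.6 in the controls.

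DNA replication genes also fell as a whole, but less far. All 41 tested members were called lower, with a median of -2.56; 33 were at least 4-fold lower and 0 at least 16-fold lower. RRM2, the regulated subunit of ribonucleotide reductase, was at 389, 391, 393 and 381 CPM in the control libraries and 27.6, 27.9, 29.1 and 27.4 CPM in the treated ones (log2 fold change -3.80, SE 0.051, adjusted p = 1.33e-17). Of its RefSeq promoters, the only one with an E2F core (TTGGCG, or CGCCAA on the other strand) is shown with that core and its CCAAT box in capitals. The other RRM2 promoter and those of MCM7 and MCM2 held no E2F core in this window.
RRM2, chr2:10122318-10122567, plus strand: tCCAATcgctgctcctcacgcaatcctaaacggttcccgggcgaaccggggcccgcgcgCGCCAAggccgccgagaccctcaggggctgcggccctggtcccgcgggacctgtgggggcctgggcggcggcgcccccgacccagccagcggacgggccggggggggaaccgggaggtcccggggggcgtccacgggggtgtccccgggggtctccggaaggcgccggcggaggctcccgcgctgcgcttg
The E2F core occurred in 16 of 47 windows of replication genes (34.0%), against 22.9% of the mitotic windows, 10.7% of windows of tested genes and 7.45% of all promoters. The CHR letters occurred in 1 of the 47 replication windows (2.13%), fewer than in the windows of tested genes. An E2F core that overlapped a CCAAT box occurred in 3 mitotic and 3 replication windows. MCM10, which acts with the replicative helicase, fell from 39.1 ± 1.18 to 2.79 ± 0.24 CPM. MCM7 of the helicase itself fell from 329 ± 11.6 to 35.2 ± 1.56 CPM (log2 fold change -3.22, SE 0.054, adjusted p = 3.81e-17). MCM2, MCM3, MCM4, MCM5 and MCM6, the other helicase subunits, fell with log2 fold changes of -2.96, -2.35, -2.76, -3.14 and -2.56. PCNA, the sliding clamp, which DNA damage is also known to induce, fell less, from 222 ± 14.6 to 72.9 ± 3.83 CPM (log2 fold change -1.60, SE 0.059, adjusted p = 4.58e-13). POLD2, a subunit of polymerase delta, had the smallest loss, from 158 ± 12.2 to 119 ± 6.23 CPM.

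Of 28 DNA repair genes, 24 were called lower (85.7%) and 2 higher (7.14%), against 33.0% and 33.8% over all tested genes (list median -2.10). The largest losses were in homologous recombination and the Fanconi pathway, which serve replicating cells: RAD54L fell from 35.6 ± 2.01 to 2.26 ± 0.581 CPM. FANCD2 fell from 49.3 ± 3.45 to 3.33 ± 0.0759 CPM (log2 fold change -3.88, SE 0.084, adjusted p = 4.82e-16). Non-homologous end joining, the repair route open in G1, lost less, with XRCC5 and XRCC6, the Ku subunits, at 471 ± 20.4 and 310.0 ± 19.2 and at 511 ± 22.8 and 360.1 ± 16.3 CPM. LIG4, the ligase of that route, rose from 21.4 ± 1.87 to 28.4 ± 2.62 CPM (log2 fold change 0.40, SE 0.082, adjusted p = 0.000364). ATR, a damage-sensing kinase, rose from 51.6 ± 4.27 to 59.2 ± 4.15 CPM although its groups overlapped (log2 fold change 0.20, SE 0.069, adjusted p = 0.0194), and the call was lost without control replicate 4, without DOX+F replicate 3 and with library totals alone.

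The nuclear lamina and chromatin list had 19 of 21 members lower and none higher (median -1.82). LMNB1, lamin B1, whose loss is a known mark of lasting arrest, was at 179, 178, 189 and 183 CPM in the control libraries and 8.77, 6.73, 6.7 and 8.94 CPM in the treated ones (log2 fold change -4.54, SE 0.083, adjusted p = 7.71e-17), with no overlap. HMGB2, a chromatin architectural protein, fell from 218 ± 12.5 to 10.8 ± 0.654 CPM. TMPO, the lamina-associated LAP2, fell from 299 ± 8.54 to 32.8 ± 1.18 CPM. EZH2, the methyltransferase of the Polycomb complex, fell from 61.7 ± 4.64 to 6.27 ± 0.744 CPM. UHRF1 and DNMT1, which copy DNA methylation after replication, fell from 225 ± 9.94 to 32.2 ± 1.8 and from 328 ± 11.1 to 93.2 ± 2.61 CPM. LMNA, which encodes the A-type lamins, fell by much less, from 1269 ± 75.4 to 1013 ± 49.0 CPM (log2 fold change -0.33, SE 0.052, adjusted p = 3.38e-05). EMD and HMGA2 were not called, at 60.3 ± 3.17 and 62.6 ± 4.08 and at 211 ± 16.8 and 206 ± 3.82 CPM.

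Families defined by symbol were described in the same way, and their members are named here after their values were seen. A match by symbol also takes in pseudogenes, such as HNRNPA1P16, KRT87P, ZNF887P and PCDHGB8P. Of 21 tested centromere proteins, 20 were lower and 1, CENPT, higher. Of 36 CEP centrosomal proteins, 30 were lower and 3 higher, and CEP55 of the abscission site had the largest loss, from 174 ± 4.12 to 10.1 ± 1.12 CPM. The 33 kinesins were split, with 17 lower and 9 higher: KIF17, a transport motor, rose from 1.38 ± 0.403 to 4.36 ± 0.927 CPM. KIF3B of the intraflagellar motor rose from 65.5 ± 1.34 to 106 ± 4.78 CPM. Nucleoporins, the proteins of the nuclear pore, were lower in 20 of 21, and none was higher (median -0.92). Genes with symbols of the SR and hnRNP splicing families were lower in 30 of 35 and higher in 2 (median -0.82). The largest fall among them was that of the pseudogene HNRNPA1P16. Zinc finger genes with a ZNF symbol were lower in 144 and higher in 65 of 457 (33 higher and 228 lower with library totals alone), so that their lower share was near the 33.0% of all tested genes and their higher share below the 33.8%.

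**Figure D3:**
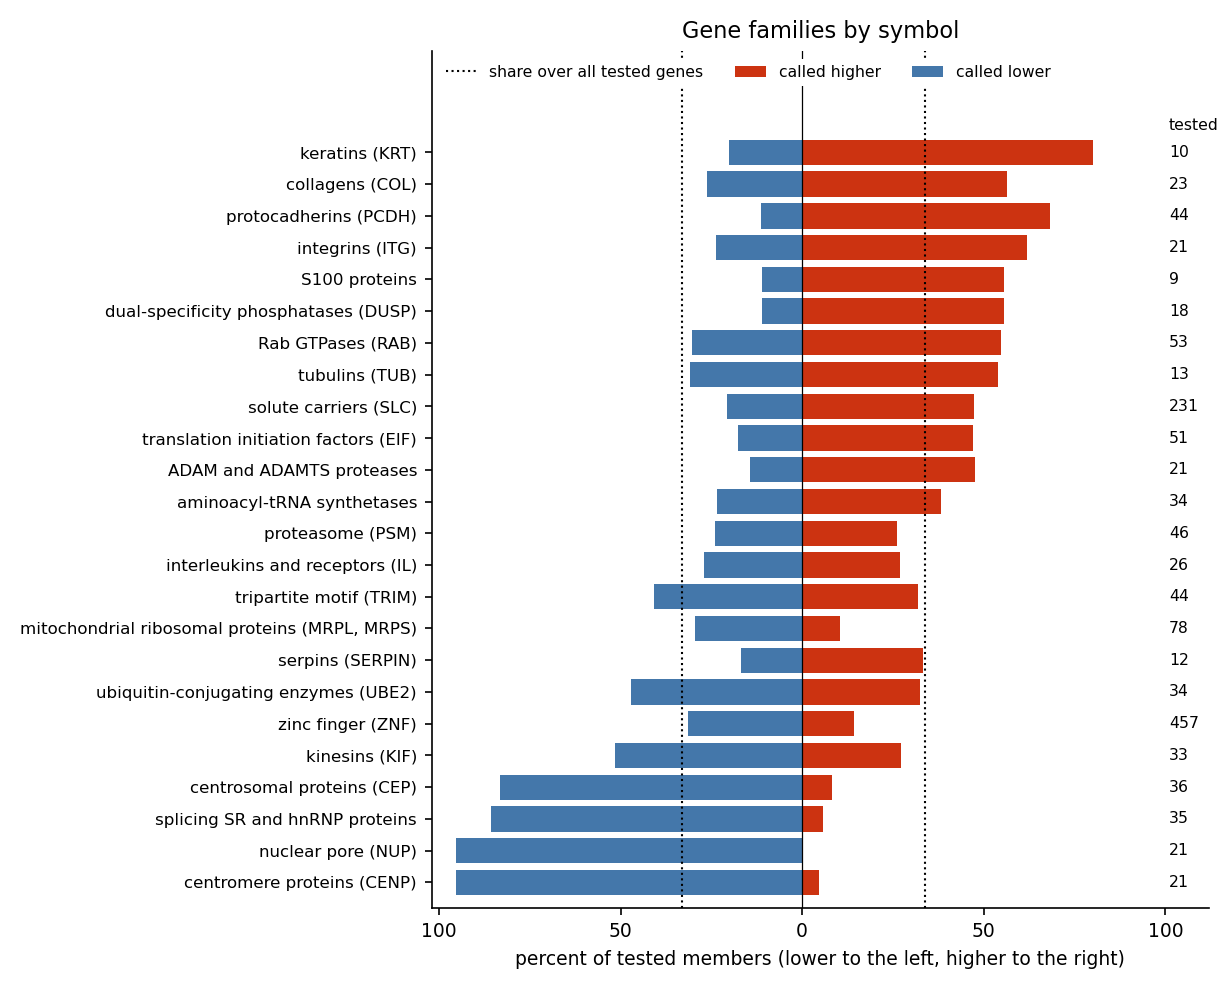
Percent of tested members called higher (right) and lower (left) in 24 gene families defined by symbol, with the number tested at the right and dotted lines at the 33.8% higher and 33.0% lower over all tested genes. Centromere, nuclear pore, centrosomal and splicing families lie almost wholly on the left, and keratins, protocadherins and genes with an ITG symbol mostly on the right.

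Regulators of G1 changed in both directions. Of 26 tested members, 5 were called higher (19.2%) and 17 lower (65.4%), against 33.8% and 33.0% over all tested genes (list median -1.06). CDKN1A, the inhibitor of cyclin-dependent kinases (chr6:36676460-36687339), was at 179, 198, 194 and 199.6 CPM in the control libraries and 1449, 1512, 1453 and 1508 CPM in the treated ones (log2 fold change 2.94, SE 0.05, adjusted p = 3.81e-17), and every treated library exceeded every control library several times over. CCND1, cyclin D1, which starts G1 progression, was at 1350.2, 1299, 1315 and 1306 CPM in the control libraries and 4755, 4722, 4861 and 4866 CPM in the treated ones (log2 fold change 1.86, SE 0.039, adjusted p = 3.24e-16). The groups did not overlap, and its mean CPM became one of the 10 highest of treated cells. CDK6 and CCND3, its partner and relative, rose from 76.0 ± 7.84 to 98.3 ± 7.02 and from 65.5 ± 4.89 to 85.5 ± 4.95 CPM. The S-phase side fell: CCNA2, cyclin A2, went from 173 ± 5.29 to 7.22 ± 0.997 CPM (log2 fold change -4.59, SE 0.078, adjusted p = 3.88e-17). CCNE2 fell from 23.3 ± 1.0 to 2.24 ± 0.105 CPM. E2F1, the activating transcription factor of S-phase genes, fell from 77.8 ± 2.18 to 11.1 ± 1.65 CPM. CDKN2C, an inhibitor of CDK4 and CDK6 that E2F also drives, fell from 80.9 ± 7.19 to 5.99 ± 0.565 CPM (log2 fold change -3.75, SE 0.088, adjusted p = 1.23e-15). CDKN1B, another kinase inhibitor, fell as well, from 116 ± 4.79 to 45.6 ± 2.16 CPM. CCNE1, cyclin E1, was not called, at 10.0 ± 0.535 and 8.94 ± 1.1 CPM, and neither were E2F4 and E2F5.

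Genes that DNA damage is known to induce rose almost throughout. Of 30 tested members, 27 were higher and none lower (median 1.23), and with library totals alone 26 were higher and 3 lower. MDM2, the ubiquitin ligase that closes the feedback loop of the damage response, was at 93.2, 85.9, 81.8 and 80.1 CPM in the control libraries and 214, 213, 235 and 225 CPM in the treated ones (log2 fold change 1.38, SE 0.057, adjusted p = 2.24e-12). ZMAT3, an RNA-binding target of the response, rose from 86.6 ± 6.6 to 312 ± 22.7 CPM (log2 fold change 1.85, SE 0.065, adjusted p = 2.53e-13). TIGAR, a fructose bisphosphatase, rose from 19.5 ± 0.63 to 65.4 ± 4.94 CPM (log2 fold change 1.75, SE 0.067, adjusted p = 7.89e-13). TNFRSF10B, a death receptor, rose from 117 ± 0.905 to 275 ± 11.7 CPM (log2 fold change 1.24, SE 0.047, adjusted p = 8.26e-13). BTG2 and SPATA18 had the largest rises after CDKN1A, from 4.01 ± 0.482 to 21.9 ± 1.47 and from 3.23 ± 0.645 to 18.2 ± 0.987 CPM. The other 3 members were not called. PLK2, a polo-like kinase, was at 508 ± 13.9 and 510.2 ± 21.7 CPM, PPM1D, the phosphatase that ends the response, at 15.9 ± 0.814 and 14.1 ± 0.563 CPM, and DDB2, a sensor of ultraviolet lesions, at 9.58 ± 1.11 and 8.65 ± 0.974 CPM. GDF15 was below the filter, with 0 to 7 counts a control library and 3 to 5 a treated one.

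Apoptosis genes did not move as a group. Of 27 tested members 11 were higher (40.7%) and 7 lower (25.9%), against 33.8% and 33.0% over all tested genes (list median 0.11). The balance turned to 7 higher and 10 lower with library totals alone. BCL2L1, the survival factor BCL-XL, rose from 161 ± 7.61 to 348 ± 7.03 CPM (log2 fold change 1.11, SE 0.048, adjusted p = 3.59e-12). BCL2L2 rose from 35.4 ± 1.36 to 53.8 ± 2.84 CPM, while BCL2 itself fell from 18.4 ± 0.902 to 5.04 ± 0.484 CPM (log2 fold change -1.87, SE 0.096, adjusted p = 3.39e-11). Among the BH3-only death genes, BBC3 rose from 4.86 ± 0.477 to 12.7 ± 1.91 CPM (log2 fold change 1.39, SE 0.12, adjusted p = 4.69e-08). BMF and BCL2L11 fell from 32.8 ± 1.9 to 5.14 ± 0.637 and from 9.42 ± 1.02 to 2.46 ± 0.224 CPM. CASP6, a caspase, fell from 18.3 ± 1.74 to 12.5 ± 1.34 CPM. MCL1 and XIAP were not called, at 252 ± 5.09 and 248 ± 12.7 and at 65.3 ± 4.76 and 67.2 ± 4.05 CPM.

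Histone genes of the replication-dependent clusters rose, against the direction of the replication genes. These genes usually make RNA without a poly(A) tail and only in S phase, and the labels do not state whether poly(A) selection was used, so the part of the tail in these values was not tested. Of 43 listed members, 38 were in the table and 13 had enough counts to be tested. Of the 13, 11 were higher, 1 was lower and H4C14 was not called. Members that passed only through high counts in treated cells had to differ, so the count is a description. H2BC12 was at 10.8, 9.87, 10.2 and 10.3 CPM in the control libraries and 53.8, 58.2, 56.6 and 52.3 CPM in the treated ones (log2 fold change 2.42, SE 0.066, adjusted p = 8.9e-15). H2AC6 rose from 4.33 ± 0.582 to 39.5 ± 2.49 CPM (log2 fold change 3.19, SE 0.093, adjusted p = 2.01e-14). H2BC21 rose from 1.9 ± 0.497 to 18.6 ± 0.897 CPM. H4C8 rose from 0.686 ± 0.177 to 9.29 ± 0.427 CPM, and the linker histone H1-2 from 6.47 ± 0.719 to 23.6 ± 2.55 CPM (log2 fold change 1.87, SE 0.1, adjusted p = 7.95e-11). H2AC20 was the exception and fell from 1.2 ± 0.36 to 0.158 ± 0.15 CPM (log2 fold change -2.81, SE 0.48, adjusted p = 6.41e-05). The other 25 in the table stayed below the filter with at most 15 counts in any library, among them H3C1 with 0 in all 8. Histone genes are near-identical copies, so how the authors' counting divided reads among them is uncertain, and H2AC19, which rose from 2.26 ± 1.53 to 15.9 ± 4.76 CPM, is named with that limit. A CCAAT box occurred in 12 of 15 promoter windows of the tested histone genes (80.0%), against 32.9% for tested genes.

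Genes of ferroptosis defence did not move together. Of 27 tested members 12 were higher (44.4%) and 9 lower (33.3%), against 33.8% and 33.0% over all tested genes (list median 0.007). With library totals alone the balance turned to 9 higher and 13 lower. In the cystine and glutathione route, SLC7A11, the cystine importer, was at 74.0, 68.1, 66.4 and 64.3 CPM in the control libraries and 109, 111, 141 and 133 CPM in the treated ones (log2 fold change 0.86, SE 0.079, adjusted p = 6.34e-08). All 4 treated libraries lay above the controls. GCLC, GCLM and GSS, the enzymes that make glutathione, rose from 20.1 ± 0.781 to 32.0 ± 2.12, 39.1 ± 2.01 and 54.2 ± 5.61 and 60.2 ± 3.59 and 94.7 ± 5.33 CPM. TXNRD1, thioredoxin reductase, rose from 669 ± 15 to 1475 ± 106 CPM (log2 fold change 1.14, SE 0.052, adjusted p = 7.07e-12). PRDX6, a peroxiredoxin that repairs phospholipid peroxides, rose from 137 ± 8.13 to 225 ± 12.9 CPM (log2 fold change 0.72, SE 0.057, adjusted p = 9.07e-09). GPX4, the selenoenzyme that reduces phospholipid peroxides, was at 161, 189, 195 and 213 CPM in the control libraries and 189.8, 182, 171 and 188 CPM in the treated ones, the groups overlapped, and it was not called (log2 fold change -0.050, SE 0.07, adjusted p = 0.545), although it was called lower with library totals alone (log2 fold change -0.21).

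AIFM2, the FSP1 reductase that regenerates coenzyme Q at the membrane, was at 42.6, 44.6, 49.6 and 49.5 CPM in the control libraries and 38.2, 41.1, 36.2 and 37.4 CPM in the treated ones (log2 fold change -0.28, SE 0.066, adjusted p = 0.00122). Every treated library lay below every control library. COQ2, the enzyme that attaches the prenyl tail of coenzyme Q, fell from 22.0 ± 1.48 to 9.06 ± 0.895 CPM (log2 fold change -1.28, SE 0.088, adjusted p = 1.72e-09). PDSS1, which makes that tail, fell from 10.5 ± 0.593 to 6.04 ± 0.53 CPM. COQ7 fell from 14.5 ± 1.05 to 10.8 ± 1.45 CPM, and COQ8A from 10.8 ± 1.92 to 7.7 ± 1.07 CPM although its groups overlapped. DHODH, the mitochondrial reductase, fell from 10.3 ± 0.928 to 7.99 ± 1.28 CPM. GCH1, which makes tetrahydrobiopterin, fell from 3.64 ± 0.333 to 2.51 ± 0.214 CPM. PDSS2, the partner of PDSS1, rose from 19.5 ± 0.35 to 24.7 ± 1.48 CPM, and COQ4 and COQ8B were not called. MBOAT1, an acyltransferase that places monounsaturated chains in phospholipids, was at 6.09, 4.86, 5.15 and 5.0 CPM in the control libraries and 0.59, 0.47, 0.681 and 0.817 CPM in the treated ones (log2 fold change -3.03, SE 0.21, adjusted p = 1.65e-09), the largest loss of the list. Its relative MBOAT2 was not called, at 50.7 ± 4.62 and 50.6 ± 2.11 CPM.

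Of 15 tested genes that feed lipid peroxidation, 5 were higher and 6 lower (median 0.010), shares near those over all tested genes, and 2 and 7 with library totals alone. ACSL4, which loads polyunsaturated fatty acids for phospholipids, was at 225, 207, 205 and 209 CPM in the control libraries and 223, 215, 245 and 241 CPM in the treated ones (log2 fold change 0.13, SE 0.054, adjusted p = 0.0441). The groups overlapped, and the call rests on single libraries: it was lost without control replicates 2, 3 or 4 or DOX+F replicates 3 or 4, with a stricter filter, after thinning and with identifiers kept apart, and with library totals alone the log2 fold change was -0.035 and not called. Its partner LPCAT3 was not called, at 17.5 ± 1.51 and 17.7 ± 0.748 CPM, nor was POR, at 44.3 ± 3.79 and 47.1 ± 2.79 CPM. CYB5R1, a reductase known to release hydrogen peroxide, was at 20.7, 22.3, 21.8 and 22.6 CPM in the control libraries and 66.4, 67.5, 58.3 and 68.9 CPM in the treated ones and rose the most (log2 fold change 1.58, SE 0.066, adjusted p = 2.63e-12). SAT1, which breaks down polyamines, rose from 15.5 ± 1.29 to 30.7 ± 1.54 CPM (log2 fold change 0.98, SE 0.074, adjusted p = 5.5e-09). PTGS2, a prostaglandin synthase often read as a marker of ferroptosis, was scarce and fell from 1.46 ± 0.086 to 0.253 ± 0.168 CPM (log2 fold change -2.51, SE 0.37, adjusted p = 1.73e-05). ELOVL5 and FADS1, which lengthen and desaturate polyunsaturated fatty acids, fell from 146 ± 7.43 to 107 ± 6.57 and from 168 ± 10.3 to 134 ± 7.07 CPM. ALOX5, ALOXE3 and NOX1 were below the filter with at most 5 counts in any library.

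**Figure D4:**
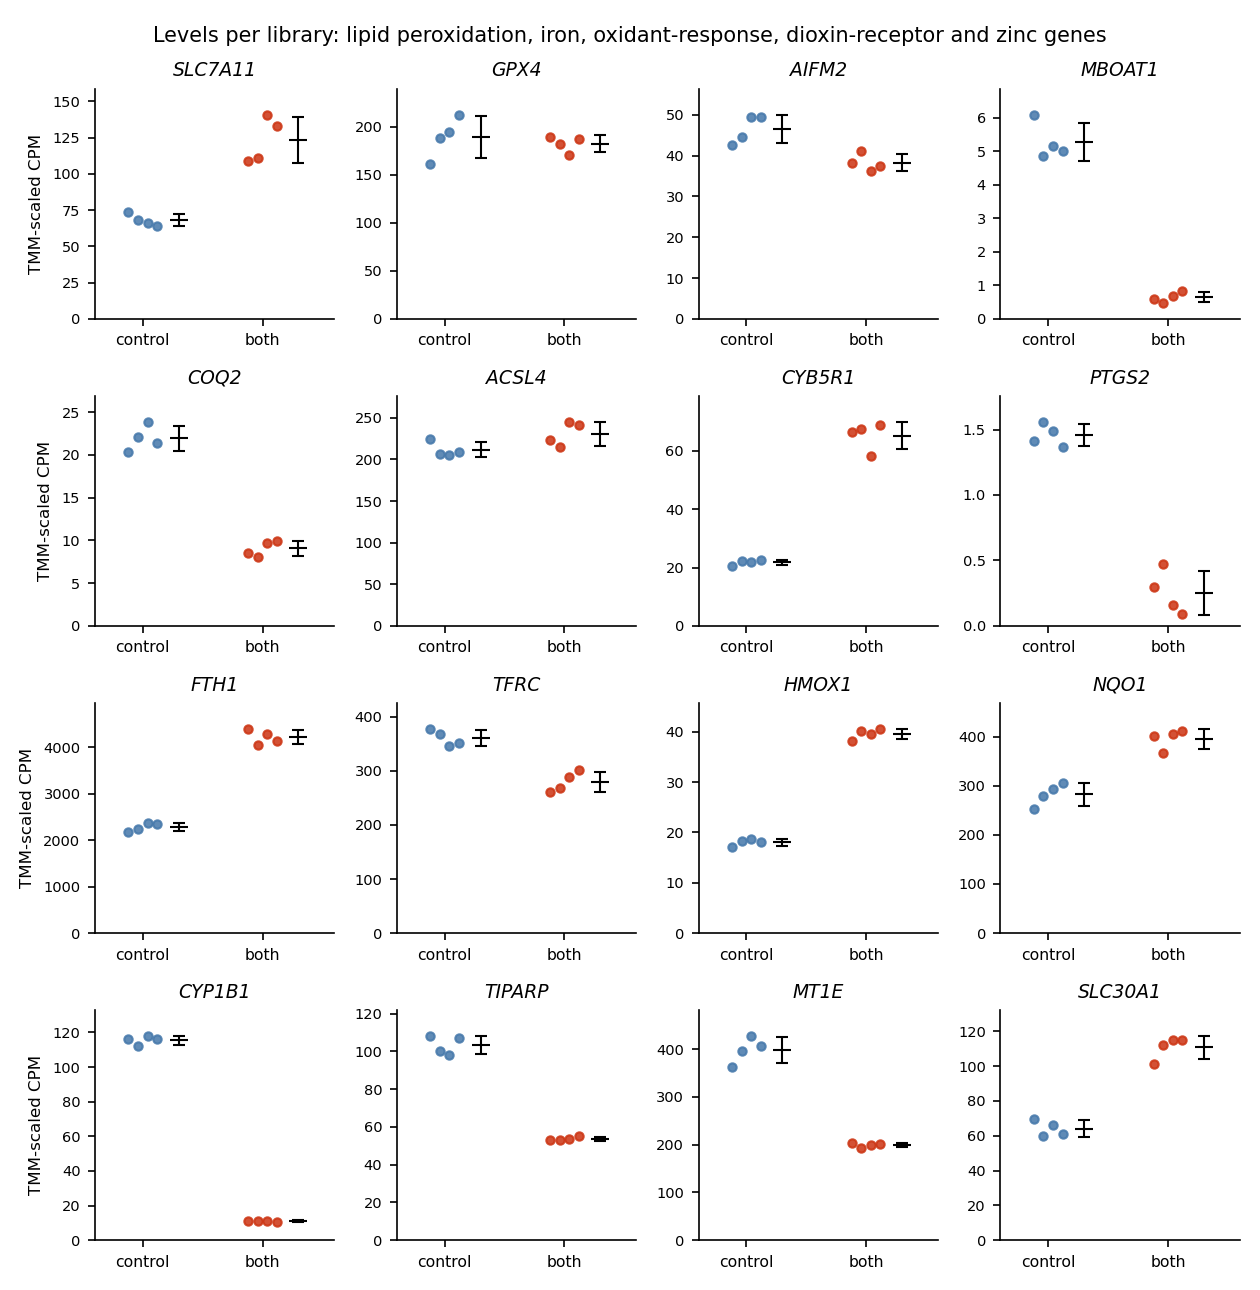
Level in each library (vertical axes, TMM-scaled CPM from 0, one panel a gene) for genes of lipid peroxidation, iron, the oxidant response, the dioxin receptor and zinc, with points for the 4 control and the 4 treated libraries and bars for mean ± SD. The groups overlap for GPX4 and ACSL4, and they are apart for the other genes shown, with CYP1B1 falling from 116 ± 2.64 to 11.0 ± 0.411 and FTH1 rising from 2279 ± 86.6 to 4219 ± 153 CPM.

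Both ferritin genes rose and the transferrin receptor fell. FTH1, the heavy chain of ferritin, was at 2178, 2235, 2362 and 2339 CPM in the control libraries and 4394, 4054, 4292 and 4137 CPM in the treated ones (log2 fold change 0.89, SE 0.043, adjusted p = 1.7e-11). FTL, the light chain, rose from 1141 ± 80.1 to 1907 ± 44.0 CPM (log2 fold change 0.74, SE 0.05, adjusted p = 1.36e-09). TFRC, the transferrin receptor, was at 378, 369, 346 and 351 CPM in the control libraries and 260.5, 269, 289 and 301 CPM in the treated ones, with all treated libraries below the controls (log2 fold change -0.36, SE 0.054, adjusted p = 1.51e-05). HMOX1, which frees iron from haem, was at 17.1, 18.3, 18.6 and 18.1 CPM in the control libraries and 38.2, 40.1, 39.5 and 40.5 CPM in the treated ones (log2 fold change 1.13, SE 0.061, adjusted p = 6.33e-11). CYBRD1, a ferric reductase, rose from 148 ± 3.56 to 294 ± 16.3 CPM (log2 fold change 0.99, SE 0.051, adjusted p = 3.17e-11). NCOA4, which delivers ferritin to lysosomes, rose from 135 ± 2.99 to 189.8 ± 14.3 CPM. PCBP1 and PCBP2, iron chaperones that also bind RNA, fell from 373 ± 19.5 to 277 ± 8.81 and from 504 ± 6.76 to 344 ± 9.22 CPM. FLVCR1, a haem exporter, fell from 13.9 ± 0.584 to 8.28 ± 0.388 CPM. The iron exporter SLC40A1 and the iron-responsive regulator IREB2 were not called, at 8.66 ± 0.781 and 9.58 ± 1.13 and at 68.0 ± 4.1 and 65.8 ± 4.02 CPM. Over the list, 9 of 25 members were higher and 8 lower (median 0.022), shares near those over all tested genes. With library totals alone 8 were higher and 12 lower.

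Targets of NRF2, the transcription factor of the oxidant response, rose in 23 of 27 tested members, none fell, and the median was 0.67; with library totals alone 21 were higher and 1 lower. The list shares members with the defence and iron lists. TXNRD1 is given above. OSGIN1, an oxidant-induced gene, rose from 6.88 ± 0.603 to 24.2 ± 1.34 CPM (log2 fold change 1.81, SE 0.086, adjusted p = 1.26e-11). NQO1, the quinone reductase, was at 252, 278, 294 and 305 CPM in the control libraries and 400.3, 366, 405 and 411 CPM in the treated ones (log2 fold change 0.49, SE 0.06, adjusted p = 1.91e-06), and the groups did not overlap. SRXN1, ME1 and EPHX1 rose with log2 fold changes of 1.01, 0.96 and 0.91. TXN and ABCC1 rose with overlapping groups, by 0.15 and 0.17, and both calls were lost with library totals alone, where TXN was at -0.016. The call of TXN was also lost without control replicates 1 or 2 or DOX+F replicates 1, 3 or 4 and with identifiers kept apart, and that of ABCC1 without control replicate 3 or DOX+F replicate 2. GSR, glutathione reductase, was not called, at 63.7 ± 1.64 and 65.5 ± 4.64 CPM, and neither were UGDH, PIR and ABCC2.

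The deposited table carried 71 symbols in a side column without a stated purpose, and most of them are genes of ferroptosis, iron and glutathione. Of the 63 tested, 26 were higher (41.3%) and 18 lower (28.6%), against 33.8% and 33.0% over all tested genes (list median 0.022). The balance turned to 20 higher and 29 lower with library totals alone. Many are described above. EMP2, a tetraspan protein of the membrane, had the largest loss and was at 44.2, 41.6, 42.8 and 44.5 CPM in the control libraries and 5.27, 5.74, 5.08 and 4.68 CPM in the treated ones (log2 fold change -3.06, SE 0.077, adjusted p = 2.99e-15), and its relative EMP1 fell from 95.6 ± 3.23 to 37.9 ± 0.67 CPM (log2 fold change -1.33, SE 0.052, adjusted p = 1.11e-12). SLC1A5, a glutamine importer, fell from 177 ± 7.7 to 109 ± 8.2 CPM. PRNP, the prion protein, rose from 76.0 ± 3.6 to 143 ± 4.26 CPM (log2 fold change 0.91, SE 0.052, adjusted p = 1.22e-10).

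Targets of the aryl hydrocarbon receptor, the ligand-activated sensor of dioxins and tryptophan products, were divided. CYP1B1, a cytochrome P450 (chr2:38066973-38109902), was at 116, 112, 118 and 116 CPM in the control libraries and 11.3, 11.3, 11.1 and 10.4 CPM in the treated ones (log2 fold change -3.39, SE 0.06, adjusted p = 5.11e-17), with no overlap. AHRR, the repressor of the receptor, fell from 46.7 ± 1.46 to 14.9 ± 1.48 CPM (log2 fold change -1.64, SE 0.073, adjusted p = 5.25e-12). TIPARP, a mono-ADP-ribosyltransferase that also restrains the receptor, was at 108, 100.1, 98.3 and 107 CPM in the control libraries and 53.0, 53.1, 53.7 and 55.1 CPM in the treated ones (log2 fold change -0.94, SE 0.052, adjusted p = 1.04e-10). The other tested targets rose instead: NQO1 as above and SLC7A5, an amino acid importer, from 399 ± 10.6 to 490.1 ± 35.2 CPM (log2 fold change 0.30, SE 0.053, adjusted p = 0.000104). CYP1A1, the best-known target, was below the filter with 5 to 10 counts a control library and 1 to 5 a treated one. The dioxin response core (GCGTG, or CACGC on the other strand) is shown in capitals in 1 promoter of AHRR and 1 of TIPARP that hold it. The other AHRR promoter held 2 cores and the other 2 promoters of TIPARP none, and of the targets that rose SLC7A5 held 1 and NQO1 none.
AHRR, chr5:321464-321713, plus strand: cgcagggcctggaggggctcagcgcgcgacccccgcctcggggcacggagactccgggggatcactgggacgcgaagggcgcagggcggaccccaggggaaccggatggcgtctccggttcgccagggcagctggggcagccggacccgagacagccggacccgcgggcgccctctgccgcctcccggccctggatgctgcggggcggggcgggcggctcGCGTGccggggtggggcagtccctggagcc
TIPARP, chr3:156674340-156674589, plus strand: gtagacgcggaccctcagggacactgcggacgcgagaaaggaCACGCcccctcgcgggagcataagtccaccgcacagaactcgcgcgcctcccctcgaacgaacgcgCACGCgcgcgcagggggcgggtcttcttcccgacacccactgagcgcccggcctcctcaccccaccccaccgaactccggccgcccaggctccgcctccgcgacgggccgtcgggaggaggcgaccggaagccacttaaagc
RefSeq promoters matched 4 of the 5 tested targets, and CYP1B1 had no matched promoter, so it was not searched. The core occurred in 4 of the 7 windows of the list (57.1%), against 43.4% of windows of tested genes and 32.2% of all promoters, so a match in this window is common.

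Metallothioneins, small zinc- and copper-binding proteins, were lower in 4 of 5 tested members, against 33.0% lower over all tested genes, and MT1F was not called. Metallothionein genes are near-identical copies whose reads the counting may have divided. MT1E was at 363, 397, 428 and 406 CPM in the control libraries and 203, 194, 199.7 and 201 CPM in the treated ones (log2 fold change -1.0, SE 0.053, adjusted p = 4.93e-11). MT2A fell from 1922 ± 192 to 1455 ± 61.7 CPM (log2 fold change -0.40, SE 0.062, adjusted p = 2.49e-05). MT1X fell from 20.1 ± 1.53 to 12.1 ± 0.442 CPM. SLC30A1, the zinc exporter that the same metal-responsive factor controls, went the other way, from 64.1 ± 4.79 to 111 ± 6.71 CPM (log2 fold change 0.79, SE 0.063, adjusted p = 1.23e-08), and so did that factor, MTF1, from 21.4 ± 3.07 to 29.4 ± 2.45 CPM.

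Secreted factors known from senescent cells rose in 18 of 25 tested members and fell in 4 (median 0.68). IGFBP7, a binding protein of insulin-like growth factors, was at 708, 855, 867 and 891 CPM in the control libraries and 2641, 2749, 2502 and 2768 CPM in the treated ones (log2 fold change 1.68, SE 0.064, adjusted p = 7.17e-13), without overlap. Its relatives IGFBP3 and IGFBP5 rose from 119 ± 5.18 to 409 ± 33.4 and from 25.5 ± 2.91 to 103 ± 8.01 CPM. Another relative, IGFBP4, fell from 11.7 ± 1.42 to 6.48 ± 0.786 CPM, without overlap. PLAT and PLAU, the plasminogen activators, rose from 65.3 ± 1.58 to 149 ± 8.0 and from 149.8 ± 4.12 to 203 ± 4.24 CPM. MMP2 and MMP14, matrix metalloproteinases, rose from 2189 ± 53.3 to 3206 ± 64.4 and from 1018 ± 47.9 to 1626 ± 80.0 CPM, and their inhibitors TIMP1 and TIMP2 from 77.3 ± 7.75 to 125 ± 6.39 and from 778 ± 10.3 to 1228 ± 18.8 CPM. The inflammatory side of the list was scarce. IL6 was at 1.42 ± 0.374 and 1.8 ± 0.455 CPM and not called, CXCL8 had 1 to 5 counts a control library and 0 to 2 a treated one, and IL1A, CXCL1, CXCL2, CXCL3 and MMP1 also stayed below the filter. CCL2 and IL1B fell from 6.72 ± 0.574 to 2.14 ± 0.108 and from 6.44 ± 0.553 to 2.36 ± 0.479 CPM. VEGFA, the angiogenic factor, fell from 149 ± 10.8 to 46.2 ± 1.49 CPM (log2 fold change -1.69, SE 0.06, adjusted p = 2.6e-13).

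Interferon-stimulated genes were mixed (median -0.41), with 8 of 24 tested members higher (33.3%) and 10 lower (41.7%), against 33.8% and 33.0% over all tested genes. With library totals alone 7 were higher and 13 lower. OAS3, an antiviral synthetase, fell from 36.8 ± 2.59 to 7.63 ± 0.309 CPM (log2 fold change -2.27, SE 0.077, adjusted p = 1.52e-13). IRF1 fell from 24.9 ± 1.11 to 12.8 ± 0.759 CPM. IFIT3 fell from 20.4 ± 1.4 to 11.6 ± 0.663 CPM. RIGI, a sensor of RNA, rose from 18.4 ± 1.81 to 40.7 ± 3.85 CPM (log2 fold change 1.14, SE 0.084, adjusted p = 3.91e-09). IFITM3 rose from 49.6 ± 4.06 to 90.0 ± 5.87 CPM. Of 10 tested complement genes 5 were higher (50.0%) and 1, CD55, lower (10.0%), and 4 and 2 with library totals alone.

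Genes of the extracellular matrix rose more often than they fell, with 16 of 24 higher (66.7%) and 5 lower (20.8%). Over all tested genes the shares were 33.8% and 33.0%, and the list median was 0.70. COL4A1 and COL4A2, the basement membrane collagens, rose from 248 ± 5.87 to 872 ± 57.7 and from 559 ± 12.2 to 1359 ± 95.3 CPM (log2 fold change 1.82, SE 0.053, adjusted p = 1.83e-14 for COL4A1). LAMC1 and HSPG2, a laminin chain and perlecan of the same membrane, rose from 415 ± 28.7 to 944 ± 50.1 and from 208 ± 29.6 to 713 ± 93.8 CPM. NID1, nidogen, fell from 76.5 ± 7.14 to 32.1 ± 1.0 CPM. FN1, fibronectin, rose from 7196 ± 761 to 11899.5 ± 955 CPM. Its mean CPM was the second highest of treated cells, close to that of EEF1A1, and CPM grows with transcript length. SPARC rose from 647 ± 22.7 to 1428 ± 34.5 CPM (log2 fold change 1.14, SE 0.044, adjusted p = 7.44e-13). TNC, tenascin C, fell from 158 ± 17.1 to 55.8 ± 4.02 CPM (log2 fold change -1.50, SE 0.075, adjusted p = 2.4e-11). COL1A1 fell from 28.8 ± 2.65 to 16.7 ± 2.85 CPM, and COL1A2, COL3A1 and DCN, genes of fibroblast matrix, were below the filter with at most 12 counts in any library.

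Contractile genes rose in 16 of 22 tested members (72.7%) and fell in 3 (13.6%), against 33.8% and 33.0% over all tested genes (list median 0.44). ACTA2, smooth muscle actin, was at 32.3, 33.0, 31.7 and 30.0 CPM in the control libraries and 187, 171, 185 and 202 CPM in the treated ones (log2 fold change 2.55, SE 0.062, adjusted p = 1.77e-15), and all treated libraries lay above the controls. TAGLN and MYL9, proteins of the contractile bundle, rose from 337 ± 22.8 to 1387 ± 79.0 and from 263 ± 13.7 to 886 ± 48.2 CPM. LMOD1, which nucleates actin filaments, rose from 20.6 ± 1.75 to 75.8 ± 4.06 CPM. MYH10, non-muscle myosin IIB, fell from 197 ± 12.7 to 90.1 ± 2.88 CPM (log2 fold change -1.13, SE 0.055, adjusted p = 1.59e-11), while its paralog MYH9 rose from 3767 ± 209.9 to 4465 ± 286 CPM. Targets of YAP and TAZ, the effectors of cell spreading, were higher in 14 and lower in 3 of 23 (median 0.26), and in 10 and 7 with library totals alone. CCN2, a matricellular protein, rose from 410.5 ± 17.8 to 1681 ± 48.9 CPM (log2 fold change 2.03, SE 0.047, adjusted p = 9.53e-16). ANKRD1 rose from 564 ± 25 to 1499.6 ± 107 CPM. TGFB2 rose from 202 ± 7.51 to 492 ± 24.5 CPM. CCN1 rose only from 678 ± 34.5 to 808 ± 26.7 CPM. AXL, a receptor kinase, fell from 1175 ± 31.5 to 645 ± 21.3 CPM (log2 fold change -0.87, SE 0.044, adjusted p = 2.7e-11).

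Immediate early genes and feedback regulators of MAP kinases were divided between 7 higher and 9 lower of 24 (median -0.12), shares near those over all tested genes, and 5 higher and 14 lower with library totals alone. The phosphatases DUSP1, DUSP4, DUSP5 and DUSP6, which switch MAP kinases off, rose by 1.36, 0.67, 1.13 and 0.63 on the log2 scale, and ETV4 and FOSL1, transcription factors that the pathway induces, fell from 10.1 ± 0.808 to 1.66 ± 0.362 and from 319 ± 11.6 to 166 ± 12.7 CPM. JUN and EGR1 were not called, at 242 ± 13 and 224 ± 20.3 and at 4.03 ± 0.664 and 4.21 ± 0.729 CPM.

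Lysosomal genes rose in 31 of 36 tested members and fell in 2 (median 0.61). GLB1, the beta-galactosidase whose activity is the usual stain for senescence, was at 69.0, 76.8, 75.2 and 73.1 CPM in the control libraries and 103, 104, 102 and 104 CPM in the treated ones, with every treated library above the controls (log2 fold change 0.49, SE 0.051, adjusted p = 2.52e-07). PSAP, the precursor of the saposins, rose from 1762 ± 71.4 to 3484 ± 74.1 CPM (log2 fold change 0.98, SE 0.042, adjusted p = 3.37e-12). CTSD, cathepsin D, rose from 1844 ± 104 to 2679 ± 81.7 CPM. LAMP1 of the lysosomal membrane rose from 392 ± 4.88 to 588 ± 12.6 CPM. The exceptions were GUSB, beta-glucuronidase, which fell from 57.6 ± 1.49 to 25.2 ± 1.6 CPM (log2 fold change -1.19, SE 0.061, adjusted p = 3.45e-11), and CTSS, which was scarce and fell from 1.08 ± 0.531 to 0.426 ± 0.118 CPM. LAMP2 and CTSL were not called, at 231 ± 4.8 and 232 ± 14.8 and at 57.4 ± 3.65 and 52.9 ± 2.19 CPM. Autophagy and proton pump genes were higher in 20 and lower in 2 of 24 (median 0.42). GABARAPL1, an autophagosome protein, rose from 6.22 ± 0.864 to 29.6 ± 2.3 CPM (log2 fold change 2.25, SE 0.098, adjusted p = 4.16e-12). SQSTM1, an autophagy cargo receptor, rose from 508 ± 28.5 to 1113 ± 23.4 CPM (log2 fold change 1.13, SE 0.048, adjusted p = 2.94e-12). ATP6V1A of the pump rose from 92.8 ± 1.54 to 181 ± 10.7 CPM. ATG5 and ULK2, which act early in autophagy, fell from 36.6 ± 2.17 to 28.9 ± 3.51 and from 20.3 ± 1.59 to 16 ± 1.24 CPM.

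Genes of the mitochondrial genome took 2.91 ± 0.123% of all counts in control libraries and 3.74 ± 0.216% in treated libraries (exact two-sided permutation test, p = 0.0286, the smallest that 4 against 4 libraries allow). Of the 13 protein-coding genes, 12 were higher and none lower. MT-CO1 rose from 8493 ± 257 to 14107 ± 673 CPM (log2 fold change 0.73, SE 0.041, adjusted p = 1.25e-10), the highest mean CPM of treated cells. MT-ND6, the gene on the other strand of that genome, had the largest rise, from 412 ± 21.4 to 849 ± 19.3 CPM (log2 fold change 1.04, SE 0.048, adjusted p = 7.66e-12). However, libraries that do not mark strand cannot tell reads of MT-ND6 from those of the opposite strand. MT-ATP6 was not called, at 2841 ± 88.4 and 3049 ± 234 CPM. Nuclear genes of oxidative phosphorylation were higher in 21 and lower in 4 of 34 (median 0.19), and in 10 and 7 with library totals alone. SDHA, the flavoprotein of complex II, fell from 162 ± 5.52 to 109 ± 4.62 CPM (log2 fold change -0.57, SE 0.05, adjusted p = 3.28e-08). SDHC of its membrane anchor rose from 61.9 ± 2.1 to 90.5 ± 2.49 CPM. Of 78 mitochondrial ribosomal proteins 8 were higher and 23 lower, and 5 and 49 with library totals alone, against 33.8% and 33.0% over all tested genes.

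Cytosolic ribosomal proteins rose by little and almost without exception. They took 2.91 ± 0.227% of counts in control and 3.34 ± 0.112% in treated libraries (exact two-sided permutation test, p = 0.0286, the smallest possible), and 41 of 45 tested members were higher and none lower (median 0.38); with library totals alone 33 were higher and 1 lower. RPS19 rose the most, from 597 ± 61.0 to 952 ± 57.1 CPM. RPS16, RPS15, RPS20 and RPSA were not called. Genes of the nucleolus, where ribosomes are assembled, did not follow: 15 of 30 were lower and 5 higher (median -0.16), and 21 and 2 with library totals alone. FBL, which methylates ribosomal RNA, fell from 117 ± 10.2 to 48.0 ± 2.47 CPM (log2 fold change -1.28, SE 0.067, adjusted p = 4.25e-11). UBTF, the activator of ribosomal DNA, fell from 142 ± 4.99 to 89.5 ± 3.15 CPM. RRP12 rose from 75.2 ± 3.69 to 128 ± 6.01 CPM (log2 fold change 0.77, SE 0.055, adjusted p = 2.58e-09).

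**Figure D5:**
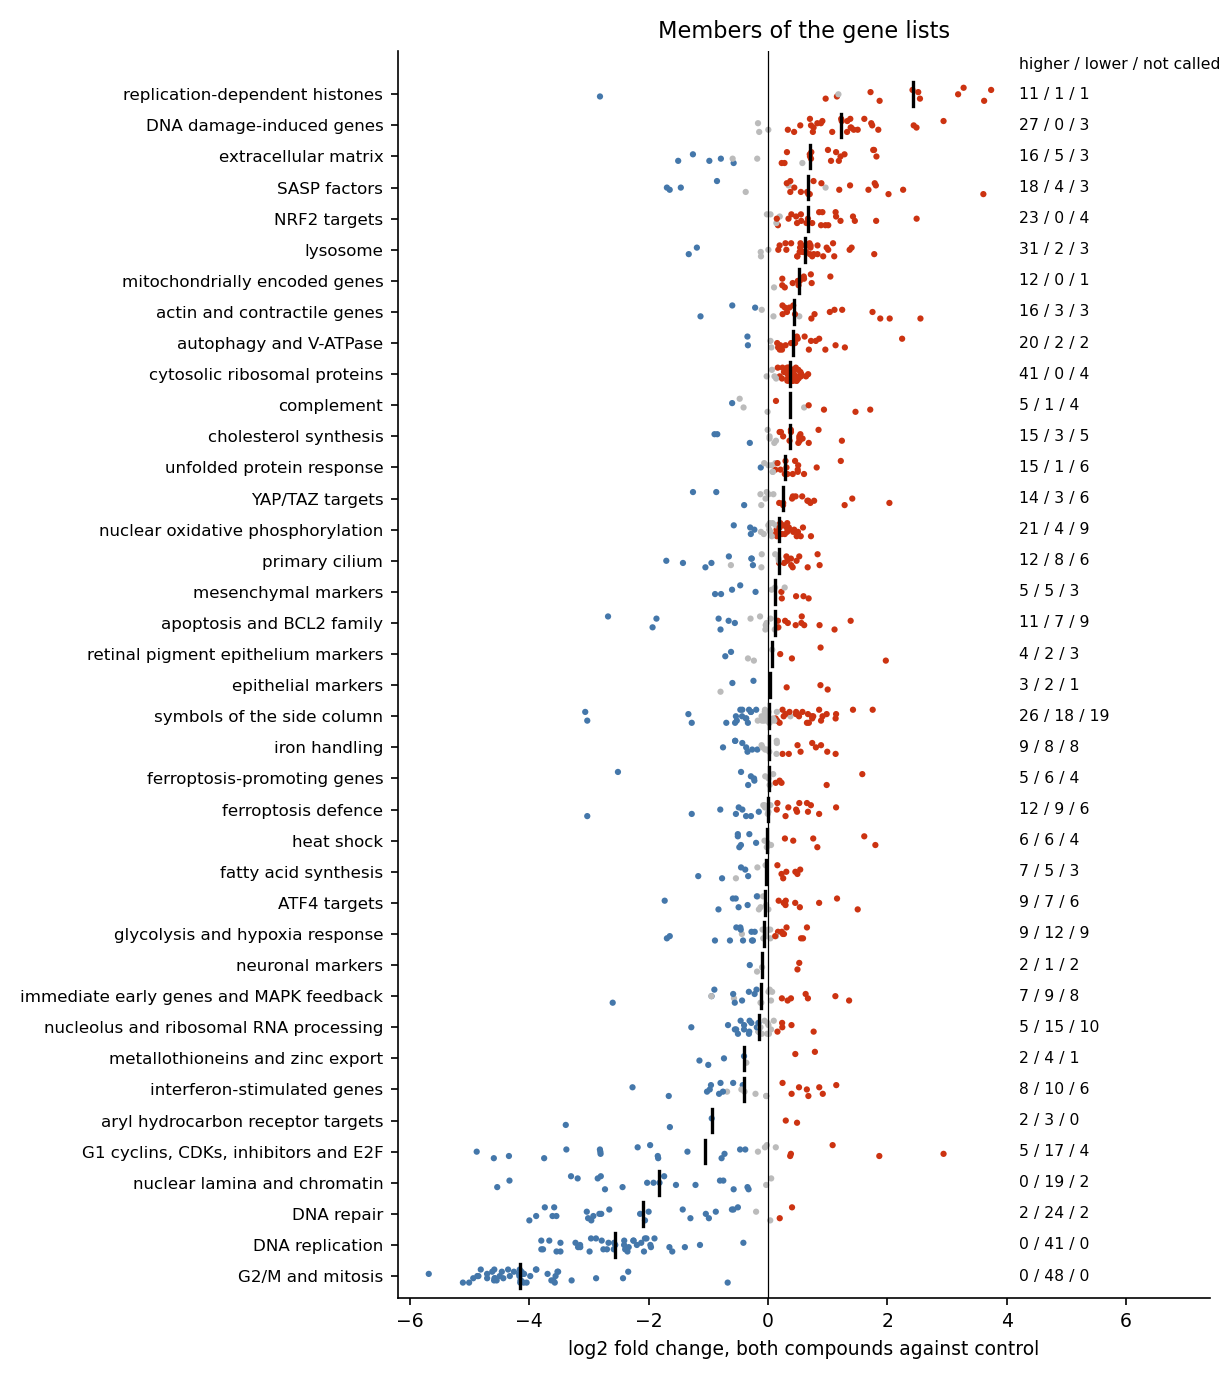
Log2 fold change (treated over control, horizontal axis) of each tested member, as points coloured by call, in the 39 gene lists with at least 5 tested members, in order of the list's median, which is a vertical bar, with the numbers called higher, lower and not called at the right. Mitosis, replication and repair stand at the low end with medians of -4.16, -2.56 and -2.10, and histones and damage-induced genes at the high end.

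Stress programmes outside the damage response moved in part. Of 22 genes of the unfolded protein response 15 were higher and 1, PDIA4, lower (median 0.29), although PDIA4 passed narrowly, at 227 ± 6.85 and 208 ± 12.7 CPM with overlapping groups (log2 fold change -0.12, SE 0.052, adjusted p = 0.0493), and its call was lost with relative log expression factors, without a filter and without any 1 of control replicates 2, 3 or 4 or DOX+F replicates 1, 2 or 3. HSPA5, the chaperone of the endoplasmic reticulum, rose from 833 ± 34.5 to 1022 ± 59.6 CPM (log2 fold change 0.29, SE 0.05, adjusted p = 6.93e-05). CALR, calreticulin, rose from 1241 ± 63.6 to 1754 ± 65.5 CPM, but DDIT3, the death-linked factor CHOP, was not called, at 8.37 ± 0.502 and 8.41 ± 0.723 CPM. Targets of ATF4, the factor of amino acid shortage, were split between 9 higher and 7 lower of 22 (median -0.055). These shares were 40.9% and 31.8%, against 33.8% and 33.0% over all tested genes. The balance turned to 6 higher and 10 lower with library totals alone. SESN2, a restraint on growth signals that DNA damage also induces, rose from 14.9 ± 0.579 to 42.1 ± 1.08 CPM (log2 fold change 1.5, SE 0.062, adjusted p = 2.15e-12). CHAC1, which breaks down glutathione, rose from 4.16 ± 0.431 to 9.26 ± 1.24 CPM. PHGDH and PSAT1 of serine synthesis fell from 157 ± 10.4 to 47.4 ± 4.16 and from 100.4 ± 3.01 to 69.1 ± 6.79 CPM (log2 fold change -1.73, SE 0.068, adjusted p = 1.16e-12 for PHGDH). Heat shock genes were higher in 6 and lower in 6 of 16 (median -0.014), shares near those over all tested genes, and in 5 and 9 with library totals alone. HSPB8 and CRYAB, small chaperones, rose from 17.9 ± 0.814 to 54.8 ± 2.96 and from 3.7 ± 0.426 to 12.9 ± 0.508 CPM. HSPD1 and HSPE1, the mitochondrial chaperonins, fell from 507 ± 23.9 to 357 ± 23.1 and from 73.3 ± 7.06 to 52.5 ± 3.3 CPM.

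Cholesterol synthesis genes were higher in 15 and lower in 3 of 23 (median 0.36). MSMO1, a sterol oxidase, rose from 90.8 ± 1.98 to 163 ± 8.81 CPM (log2 fold change 0.85, SE 0.052, adjusted p = 3.29e-10). INSIG1, which holds the pathway back, fell from 131 ± 3.5 to 70.6 ± 0.614 CPM (log2 fold change -0.90, SE 0.047, adjusted p = 5.36e-11). Fatty acid synthesis had 7 of 15 higher (46.7%) and 5 lower (33.3%), against 33.8% and 33.0% over all tested genes. With library totals alone 3 were higher and 7 lower. FASN and ACLY rose from 523 ± 22.2 to 719 ± 65.9 and from 426 ± 16.9 to 600.2 ± 29.5 CPM, and the regulator SREBF1 fell from 95.3 ± 4.87 to 56.0 ± 2.8 CPM (log2 fold change -0.77, SE 0.057, adjusted p = 4.64e-09). Glycolysis and the hypoxia response had 9 higher and 12 lower of 30 (median -0.059), shares near those over all tested genes, and 4 higher and 19 lower with library totals alone. ALDOA, aldolase, rose from 1114 ± 62.0 to 1635 ± 80.3 CPM. LDHA, lactate dehydrogenase, fell from 1154 ± 30.4 to 799 ± 33.1 CPM (log2 fold change -0.53, SE 0.045, adjusted p = 2.04e-08), while GAPDH was not called, at 5190.0 ± 251 and 5335 ± 86.1 CPM.

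Markers of cell identity moved one by one. Of the 17 retinal pigment epithelium markers, 9 were tested. Of these, 4 were higher (44.4%) and 2 lower (22.2%), against 33.8% and 33.0% over all tested genes (list median 0.071). RDH5, a retinol dehydrogenase, rose from 6.98 ± 0.545 to 27.4 ± 0.899 CPM (log2 fold change 1.97, SE 0.079, adjusted p = 1.42e-12). RDH10 rose from 21.9 ± 1.48 to 40.3 ± 3.67 CPM. OTX2, a transcription factor of the tissue, fell from 17.8 ± 0.89 to 11.6 ± 0.595 CPM (log2 fold change -0.62, SE 0.078, adjusted p = 2.66e-06). The defining pigment and visual-cycle genes TYR, TYRP1, DCT, RLBP1 and LRAT had at most 7 counts in any library, so these markers of the labelled tissue were absent or near absent in both groups. Among epithelial markers KRT8 and KRT18, the simple epithelial keratins, rose. KRT18 was at 238, 261, 271 and 269.7 CPM in the control libraries and 529.7, 503, 504 and 542 CPM in the treated ones (log2 fold change 1.0, SE 0.052, adjusted p = 4.12e-11). OCLN and TJP1, tight junction proteins, fell from 5.28 ± 0.633 to 3.5 ± 0.428 CPM and from 114 ± 11.4 to 96.1 ± 6.79 CPM, and the split of 3 higher and 2 lower became 2 and 3 with library totals alone. CDH1, EPCAM and KRT19 had at most 4 counts in any library. Mesenchymal markers were 5 higher and 5 lower of 13 (38.5% each), against 33.8% and 33.0% over all tested genes. With library totals alone 3 were higher and 5 lower. VIM, vimentin, fell slightly from 7575 ± 242 to 6556 ± 55.8 CPM (log2 fold change -0.21, SE 0.037, adjusted p = 0.000105). THY1 rose from 420.4 ± 13.8 to 635 ± 13.7 CPM. TWIST1 fell from 23.0 ± 3.07 to 12.5 ± 1.04 CPM.

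Markers of cell types that a pure line should lack were at or near 0 for some genes and well detected for others. Of 14 immune markers 4 were tested, with 1 higher and 2 lower. Their summed level was 67.5 to 75 CPM in control and 80.3 to 91.6 CPM in treated libraries, nearly all of it CD68, a lysosomal protein, and the defining markers PTPRC and CD14 had at most 9 counts in any library. Of 10 endothelial markers 3 were tested and 1 was lower, KDR, a growth factor receptor, which fell from 4.05 ± 0.73 to 1.14 ± 0.333 CPM. Their summed level was 4.81 to 7.12 CPM in control and 1.88 to 2.56 CPM in treated libraries, and PECAM1 had at most 4 counts in any library. Of 10 neuronal markers 5 were tested, with 2 higher and 1 lower. Their summed level was 479 to 534 CPM in control and 666 to 715 CPM in treated libraries, most of it TUBB3, a tubulin, which rose from 422 ± 34.2 to 607 ± 27.0 CPM. SYT1, a synaptic vesicle protein, fell from 33.4 ± 2.12 to 27.0 ± 3.02 CPM, SNAP25, its partner in secretion, rose from 4.71 ± 0.935 to 6.62 ± 0.692 CPM with overlapping groups and lost its call with library totals alone, and MAP2, a microtubule protein, was not called, at 54.9 ± 7.42 and 48.4 ± 6.23 CPM, but was called lower with library totals alone and without DOX+F replicate 3. With library totals alone 1 neuronal marker was higher and 2 lower, and STMN2, DCX and NEFM were at 0 counts in all 8 libraries. The part of such cells in any result was not tested.

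Genes of the primary cilium, the antenna that RPE1 cells build on leaving the cycle, were divided, with 12 of 26 higher and 8 lower (median 0.18). These shares were 46.2% and 30.8%, against 33.8% and 33.0% over all tested genes. The difference closed to 10 and 11 with library totals alone. The BBSome members BBS1, BBS2, BBS4, BBS7 and BBS9 rose, with log2 fold changes of 0.86, 0.27, 0.48, 0.31 and 0.83. The Hedgehog effectors GLI2 and GLI3 fell from 20.5 ± 3.03 to 7.63 ± 1.26 and from 27.1 ± 3.22 to 8.32 ± 0.568 CPM (log2 fold change -1.70, SE 0.094, adjusted p = 8.85e-11 for GLI3), and PTCH1, their target and receptor, from 6.44 ± 1.4 to 3.34 ± 0.85 CPM.

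Protocadherins, cell-surface recognition proteins of the cadherin family, were more often higher than lower, a family noticed after its values were seen. Of 44 tested, 30 were higher and 5 lower (median 0.73), 18 of them at least 2-fold higher, and with library totals alone 28 were higher and 5 lower, against 33.8% higher and 33.0% lower over all tested genes. In the beta cluster, whose members are separate single-exon genes, 11 of 14 were higher, 8 at least 2-fold, and none lower. Of the 70 protocadherins in the table, 26 were below the filter. Members that passed only through high counts in treated cells had to come out higher, so the counts of this family are a description. In the gamma cluster 12 of 20 were higher and 4 lower, and there and in the alpha cluster the members share constant exons, so reads cannot be assigned to 1 member with certainty. PCDHB7 is one of the genes near absent from control cells, with 0 to 3 counts a control library and 17 to 19 a treated one. Genes with an ITG symbol were higher in 13 and lower in 5 of 21, which counts integrins together with ITGB3BP, a kinetochore protein that was lower, and with ITGB1BP1, ITGBL1 and ITGB1P1, which are not integrin chains. Keratins, with the pseudogene KRT87P among those higher, were higher in 8 and lower in 2 of 10, and collagens in 13 and 6 of 23. Solute carriers were higher in 109 and lower in 48 of 231, and in 86 and 67 with library totals alone, against 33.8% higher and 33.0% lower over all tested genes.

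Few genes went from nothing to something. Those with at most 3 counts in every control library and the highest treated levels were SULF2, an enzyme that edits heparan sulfate, with 0 to 1 counts a control and 46 to 51 a treated library, FLG with 0 to 3 and 31 to 68, HRNR with 0 to 1 and 26 to 52, ARMH1 with 2 to 3 and 16 to 26, and PCDHB7 as above. FLG and HRNR, filaggrin and hornerin, are neighbouring genes of the epidermal differentiation complex on chromosome 1. In the other direction, NOSTRIN had 11 to 22 counts a control and 0 to 1 a treated library, DMRT1 11 to 16 and 0 to 2, and CYTIP 10 to 16 and 0 to 3. At such counts no fold is given.

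The most abundant transcripts took more of the treated libraries, with the 10 highest genes at 6.85 ± 0.0787% of counts in control and 7.75 ± 0.104% in treated libraries and the 100 highest at 20.4 ± 0.0957% and 24.3 ± 0.141% (exact two-sided permutation test, p = 0.0286 each). EEF1A1, the elongation factor of translation, led in control cells and rose from 9589.6 ± 483 to 11475 ± 643 CPM. CCND1 was among the 10 highest of treated cells and not of control cells, and the reverse held for MYH9 and MT-ND4. A share of counts grows with transcript length, so these are not ranks of molecules. Genes at a high level that were not called and differed by less than 0.1 on the log2 scale were ACTB, actin, at 7611 ± 280.2 and 7737 ± 179 CPM (log2 fold change 0.024, SE 0.039, adjusted p = 0.607), GAPDH, HSPA8, AHNAK and HSP90AB1. With library totals alone ACTB and GAPDH were called lower, with log2 fold changes of -0.14 and -0.12. A p that misses the threshold does not show equality, and their SEs of 0.039 to 0.081 bound how closely they were measured. Among the few non-coding genes that the table carries, SNHG32, a snoRNA host gene, rose from 81.7 ± 8.53 to 137 ± 11.8 CPM (log2 fold change 0.74, SE 0.076, adjusted p = 2.29e-07). SLC44A3-AS1, an antisense gene whose reads cannot be told apart from those of its partner in libraries that do not mark strand, rose from 3.32 ± 0.406 to 5.68 ± 0.859 CPM.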

How the data were processed

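Total RNA of RPE1 cells was extracted with TRIzol, made into libraries with a NEBNext Ultra kit, which does not mark strand, and sequenced as 150 bp paired reads, per the labels' protocols. The authors deposited whole-number counts per gene identifier in 1 table, and Salmon, DESeq2 and GRCh38 are named without versions, per the submitters' processing notes. How Salmon's estimates became whole counts, and whether they were corrected for transcript length, is not given in the sources used here.

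The 8 columns of control and doubly treated libraries were used, and 4 other columns of per-sample values were not used. Identifiers with the same symbol were summed (618 symbols had more than 1, up to 8), and 1935 identifiers without a symbol, with 0.311 to 0.395% of counts, were kept under their own name. Genes had to pass filterByExpr (minimum count 10, minimum total 15). They were tested with edgeR 4.0.16 in R 4.3.3, by glmQLFit and glmQLFTest with TMM factors, two-sided, with Benjamini-Hochberg adjustment over all 13165 tested genes, and called at an adjusted p below 0.05. Every adjusted p in the text comes from this fit. Shares of counts were compared by exact two-sided permutation over 70 arrangements of the libraries. The code was tested on simulated counts. Python 3.11.15, numpy 2.4.6, pandas 2.3.3, scipy 1.17.1 and matplotlib 3.10.9 were used for tables and figures, and gene positions came from GENCODE 29, which placed 20824 genes (96.412%). Promoter sequences came from RefSeq (GRCh38.p14), of which the 250 bases before the start were searched, and 10297 tested genes had one. The limit of 3 counts covers counting error only.

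The column numbers 1 to 4 were not found to pair the libraries, although so few pairs cannot exclude pairing. Residuals of same-numbered libraries correlated at -0.0508 to 0.117 over 4 pairs, and those of other numbers at -0.102 to 0.159 over 12. The comparison, the 40 gene lists and the families were chosen with earlier results of these data known. Genes were named by a rule: the 12 largest rises and 12 largest falls among called, well-measured genes whose groups do not overlap, the 4 members of each list with the smallest p and any member called against its list, a set of 18 anchor genes, the 10 most abundant genes of each group, genes with at most 3 counts in every library of one group, the largest non-coding changes, and the 5 most abundant genes that were not called and differed by under 0.1 on the log2 scale. Some genes that the rule picks are not reported here. Other list members and members of symbol families were named after their values were seen. Alternatives were relative log expression factors, library totals alone, DESeq2 1.42.0, other filters on low counts, thinning to the smallest library, identifiers kept apart, a replicate block, and each library left out in turn.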

Additional observations from a re-analysis of the deposited data

Results flagged for a closer look

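In 26 of 514 groups of 4 libraries, over 254 genes of the text and 3 values per library, 1 library lay so far from the others of its group that its gap to the nearest exceeded Dixon's 95% critical value for 4 values. Chance gives about 1 in 20 groups when groups are independent, which genes of the same libraries are not, and the share here was 5.06%. The 26 were not spread evenly over the libraries: control replicate 1 was the library apart in 12 of them. Over the tested genes its chi-square per degree of freedom was 6.95 to 12.9 against the other controls, which had 2.33 to 3.77 among themselves. In control replicate 1, ALDOA was at 1021 CPM against 1139.7 to 1150.0 CPM and FOXM1 was at 276 CPM against 260.4 to 261 CPM in the other libraries of the group. LMNA was at 1157 CPM against 1293 to 1315 CPM and MYH10 was at 216 CPM against 189.7 to 194 CPM. MAP2 was at 65.9 CPM against 49.9 to 52.5 CPM and PDIA4 was at 217 CPM against 229 to 231 CPM. PCBP1 was at 344 CPM against 380.1 to 385 CPM and PHGDH was at 142 CPM against 161 to 164 CPM. POLD2 was at 140.0 CPM against 163 to 166 CPM and RIGI was at 15.7 CPM against 19.2 to 19.6 CPM. TUBB3 was at 371 CPM against 434 to 444 CPM and XIAP was at 72.4 CPM against 62.6 to 63.2 CPM. In control replicate 2, BCL2L2 was at 37.4 CPM against 34.5 to 34.8 CPM and DHODH was at 11.7 CPM against 9.68 to 10 CPM in the other libraries of the group. ME1 was at 34.3 CPM against 38.2 to 38.9 CPM and PTCH1 was at 8.52 CPM against 5.54 to 5.99 CPM. In control replicate 3, COL4A1 was at 239 CPM against 249.9 to 251 CPM in the other libraries of the group. In control replicate 4, H2BC21 was at 2.65 CPM against 1.61 to 1.69 CPM in the other libraries of the group. In DOX+F replicate 1, PRC1 was at 15.7 CPM against 17.2 to 17.5 CPM in the other libraries of the group. SPATA18 was at 16.7 CPM against 18.6 to 18.8 CPM. In DOX+F replicate 2, CCNE2 was at 2.4 CPM against 2.18 to 2.2 CPM and COL4A2 was at 1500.1 CPM against 1301 to 1330.0 CPM in the other libraries of the group. LMOD1 was at 69.8 CPM against 77.1 to 78.6 CPM. In DOX+F replicate 3, MCM7 was at 32.9 CPM against 35.7 to 36.2 CPM in the other libraries of the group. In DOX+F replicate 4, PDSS2 was at 26.9 CPM against 23.8 to 24.2 CPM in the other libraries of the group. PSAP was at 3595 CPM against 3433 to 3457 CPM. In each of these genes except XIAP and MAP2, which were not called, and PDIA4, whose call was lost without several libraries, the difference between the groups was called with all 8 libraries and without any 1 of them.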

How the results depend on the processing

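The number of genes called stayed between 8367 and 9042 under every alternative run, against 8796. It was 8800 with relative log expression factors, 9042 with library totals alone, 8631 with DESeq2, 9017 without a filter, 8491 with at least 10 counts in all 8 libraries, 8657 after thinning, 8637 with identifiers kept apart and 8367 to 8697 with 1 library left out. With the column number as a replicate block it was 8563, and the numbers were not found to pair the libraries. The block ended 2 of the calls of the 254 genes with values in the text, those of ACSL4 and PDIA4. Of these 254 genes 227 kept call and direction under every alternative that tested them, and 6 of the 254 were not tested with at least 10 counts in all 8 libraries. Library totals alone made the most difference, because the treated libraries have lower TMM factors (0.939 to 0.954 against 1.05 to 1.07). There the called genes were 3132 higher and 5910 lower, 16 list medians in place of 24 of 41 were above 0, and the sign turned for ACSL4 (-0.035), TXN (-0.016), ACTB (-0.14), GAPDH (-0.124), LAMP2 (-0.157) and PLK2 (-0.158), of which the first 2 had been called higher and the other 4 were called lower only there. The calls of EEF1A1 (0.095), MYH9 (0.081), CCN1 (0.089), BBS2 (0.107), SNAP25 (0.33), ATR (0.033) and ABCC1 (0.003) were lost there. CCNE1, CTSL, DDB2, GPX4, HMGA2, IREB2, JUN, MAP2, MBOAT2, MCL1 and PPM1D, not called in the main comparison, were called lower there, at -0.348 to -0.167. Of genes not called, leaving out single libraries gave calls for CTSL (-0.156) and JUN (-0.145) without control replicate 1, CCNE1 (-0.251) and JUN (-0.168) without DOX+F replicate 2, MAP2 (-0.279) without DOX+F replicate 3, and MT-ATP6 (0.144) without DOX+F replicate 4. The calls of TJP1 (-0.206), TXN (0.137) and ACSL4 (0.118) were lost with identifiers kept apart, and PPM1D was called lower (-0.183) with at least 10 counts in all 8 libraries. Between 21 and 26 list medians were above 0 with 1 library left out. The difference in mitochondrial share was 0.744 to 0.916 percentage points and that in ribosomal protein share 0.329 to 0.494 with 1 library left out, where p cannot go below 0.0571, and both were the same over tested genes only. Depth limits genes below 1 CPM, of which 20.4% were called.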

Other observations

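Among identifiers without a symbol, ENSG00000285976.2, chosen after its values were seen, stood out. GENCODE 29 places it at chr6:63572012-63583587 on the plus strand of GRCh38, inside the locus of PTP4A1, a phosphatase gene on the same strand at chr6:63521746-63583377. The identifier was at 1.01, 1.4, 0 and 1.67 CPM in the control libraries and at 97.6, 106, 108 and 65.5 CPM in the treated ones. PTP4A1 was at 135, 123, 129 and 116 CPM and at 47.0, 40.8, 52.1 and 87.4 CPM. The sum of both was 127 ± 7.45 CPM in control and 151 ± 7.19 CPM in treated libraries (SD, n = 4). The identifier made up at most 1.41% of that sum in control libraries and 42.8 to 72.1% in treated libraries, with DOX+F replicate 4 the lowest. How the authors' counting divided reads between the overlapping annotations was not tested, so neither value is given as a change of PTP4A1.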
